A study of Mus musculus with 10 samples.

Results

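The mouse genome carries a family of carboxylesterase genes in a pair of clusters on chromosome 8, and 10 of its members that are prominent in the liver are described here: Ces1b, Ces1c, Ces1d, Ces1e, Ces1f, Ces1g, Ces2a, Ces2c, Ces2e, and Ces3a. They were found by symbol among the 21939 genes of the deposited count table, each matched 1 Ensembl identifier, and 10 of 10 passed the filter on low counts that left 13641 genes to test. The mice were males of the C57BL/6J background. Their stated age was 8 to 9 weeks, which the paper does not tie to the day of isolation. RNA-seq was carried out on hepatocytes isolated by liver perfusion and Percoll purification, 12 days after 1 injection of AAV8Cre. This virus carries the Cre recombinase gene under the thyroxine-binding globulin promoter, which is active in hepatocytes. Control mice (n = 3) had no floxed allele and received AAV8Cre as well, Nrf2 KO mice (n = 2) had floxed Nrf2, p65 KO mice (n = 2) had floxed p65, and DKO mice (n = 3) had both, so Cre and the virus are shared by all 4 genotypes and deletion outside hepatocytes was not part of the model.

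Carboxylesterases are serine hydrolases of the endoplasmic reticulum lumen, and in mice also of the plasma, that cleave ester, amide, and thioester bonds in drugs, toxins, and lipids. In hepatocytes they activate or inactivate ester drugs, and several of them hydrolyze stored triacylglycerol whose fatty acids enter very low density lipoproteins. Nrf2 is a transcription factor that, paired with a small Maf protein, binds antioxidant response elements in genes for detoxification enzymes, whereas p65 is the transactivating subunit of NF-κB that drives inflammatory and survival genes. The question posed to the data was which carboxylesterase transcripts depended on Nrf2, on p65, or on both, and which did not.

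Ces1b (ENSMUSG00000078964) lies at chr8:93780578-93806709 on the minus strand of GRCm39, followed on the same strand by Ces1c (chr8:93825643-93857942), Ces1d (chr8:93892693-93924466), Ces1e (chr8:93927846-93956247), Ces1f (chr8:93981999-94006375), and Ces1g (chr8:94028683-94063953). The other cluster is on the plus strand, with Ces2a (chr8:105460630-105468266), Ces2c (chr8:105573700-105581115), Ces2e (chr8:105652848-105661304), and Ces3a (chr8:105775223-105789243). These paralogs arose by duplication and remain alike in sequence. Among their coding sequences, Ces1b and Ces1c were the most similar pair, with 88.8% identical positions, against 55.6% between Ces1b and Ces3a. The similarity is shown by the 60 bases of coding sequence around the codon of the active-site serine, which each member holds once, with capitals at the bases that differ from Ces1b:

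Ces1b: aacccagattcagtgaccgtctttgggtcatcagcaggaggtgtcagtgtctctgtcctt
Ces1c: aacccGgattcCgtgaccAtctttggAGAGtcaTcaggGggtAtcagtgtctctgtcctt
Ces1d: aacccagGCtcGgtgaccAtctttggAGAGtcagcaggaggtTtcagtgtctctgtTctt
Ces1e: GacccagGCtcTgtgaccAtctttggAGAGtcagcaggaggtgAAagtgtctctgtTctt
Ces1f: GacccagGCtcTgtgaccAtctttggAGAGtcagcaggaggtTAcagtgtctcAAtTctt
Ces1g: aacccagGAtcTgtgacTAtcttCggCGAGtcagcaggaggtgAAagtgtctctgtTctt
Ces2a: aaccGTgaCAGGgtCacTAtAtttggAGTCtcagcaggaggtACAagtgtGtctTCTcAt
Ces2c: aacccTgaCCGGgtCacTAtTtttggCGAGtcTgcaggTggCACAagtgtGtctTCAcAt
Ces2e: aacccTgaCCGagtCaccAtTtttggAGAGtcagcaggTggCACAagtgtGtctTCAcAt
Ces3a: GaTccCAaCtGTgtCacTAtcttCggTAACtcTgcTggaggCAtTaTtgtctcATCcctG

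Ces1c and Ces1d each differed from Ces1b at 10 of these 60 bases, the other Ces1 members at 12 to 14, and the Ces2 and Ces3 members at 21 to 25. Such likeness bears on the measurement, because the authors assigned reads of 100 bases to transcripts by estimation. Of the distinct 31-base words in the annotated transcripts of Ces1b, 10.2% also occurred in another gene, and the share was 20.4% for Ces1c, 2.85% to 5.54% for Ces1d, Ces1e, Ces1f, and Ces1g, 22.6% for Ces2a, 8.54% for Ces2e, and 16.7% for Ces3a. Ces2c stood apart with 64.2%, of which the largest part (58.7% of all its words) was shared with Gm64957, a long noncoding RNA gene in the same cluster that is no gene of the count table. The words were counted in GENCODE release 39, whereas the authors assigned reads on release 33. Whether Gm64957 was among their transcripts is not known here. The Ces2c counts may be the least certain of the 10, but the effect of this sharing on them was not tested.

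The 10 libraries held between 33707165 and 49897382 estimated counts. Nfe2l2, the gene for Nrf2, stood at 2100 ± 189 (SD, n = 3) in control against 4872 ± 188 (SD, n = 2) in the libraries labelled Nrf2 KO, in normalized counts, and Rela, the gene for p65, stood at 1256 ± 29.9 (SD, n = 3) against 1196 ± 18.6 (SD, n = 2) in those labelled p65 KO. A normalized count is an estimated count divided by the library's size relative to the mean library after TMM scaling. The table gives 1 total per gene, the deleted exons could not be read apart from the rest, and the totals do not check the deletions. The genotype names used here are therefore those of the labels. Nqo1, a classical Nrf2 target gene, had 181 to 218 normalized counts in control and 63.0 to 84.0 in Nrf2 KO libraries, and 199 to 207 in p65 KO against 52.6 to 103 in DKO libraries. Hepatocyte markers were abundant, with 11 of 12 listed markers in the table and a summed level of 3556486 to 5649231 normalized counts over all libraries.

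The members spanned a wide range of levels in control hepatocytes. Expressed as counts per kilobase of the canonical transcript and per 1e+06 counts of the library, the only scale here on which genes can be set against each other, Ces1c was the highest with 1299 ± 14.9 (SD, n = 3), followed by Ces3a with 960 ± 140 (SD, n = 3), and Ces1d with 529 ± 63.5 (SD, n = 3). Ces1c encodes the secreted plasma carboxylesterase of rodents, and Ces1d the enzyme also known as triacylglycerol hydrolase. Ces2a (285 ± 20.5), Ces1f (203 ± 3.13), Ces1e (101 ± 11.3), Ces1g (94.8 ± 5.56), and Ces2e (80.1 ± 6.93) were intermediate on the same scale (SD, n = 3 each). The lowest were Ces2c with 36.6 ± 11.4 and Ces1b with 16.5 ± 0.398 (SD, n = 3 each). Neighbours in this order did not overlap between their 3 control libraries, except Ces1e and Ces1g. In DKO libraries, Ces3a (962 ± 110, SD, n = 3) stood above Ces1c (914 ± 70.0, SD, n = 3), although their ranges of 835 to 1035 and 833 to 956 overlapped. Ces1b kept the lowest mean level per length in all 4 genotypes, although in p65 KO its range of 27.5 to 27.8 lay within that of Ces2c, 22.6 to 36.8. This rank rests on the annotated length of its canonical transcript, 4806 bases, against 1871 to 2791 in the other members. A shorter transcript would give Ces1b a higher level per length.

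**Figure D1:**
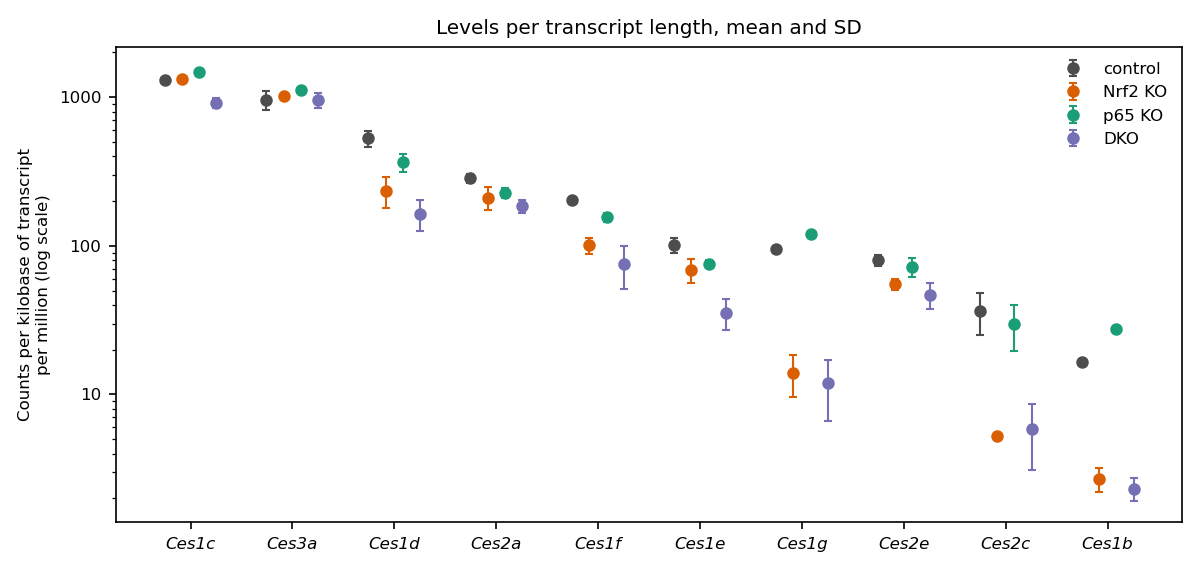
Levels of the 10 carboxylesterase transcripts in counts per kilobase of canonical transcript scaled to library size (log axis), ordered by the control level; points are means and bars the SD over the 3 control, 2 Nrf2 KO, 2 p65 KO, and 3 DKO libraries. In control the levels run from 16.5 (Ces1b) to 1299 (Ces1c), and the points of Ces1g, Ces2c, and Ces1b in Nrf2 KO and DKO lie far below those in control and p65 KO.

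Loss of Nrf2 lowered a subset of the paralogs. The comparison of Nrf2 KO with control gives its effect with p65 present, that of DKO with p65 KO gives it with p65 lost, and no library is shared between the 2 comparisons. With p65 present, 4 of 10 members were lower at an adjusted p of at most 0.05, against 0.594% of all genes tested, and the same 4 members also passed a log2 fold change of at least 1, against 0.44% of all genes. In what follows, past the adjusted threshold refers to that p alone in the edgeR fit unless another tool is named, and called means past both thresholds. With p65 lost, 5 of 10 members were lower, against 2.06% of all genes, and 3 of them passed the fold threshold too, against 0.968%. In the mean of both effects, 6 members were lower (1.21% of all genes) and 4 passed both thresholds (0.455% of all genes). No member was higher on Nrf2 loss with edgeR in any of these comparisons, also at an unadjusted p below 0.05 and with DESeq2 or limma. Lower at an unadjusted p below 0.05 with edgeR were 8 members with p65 present, 7 with p65 lost, and 9 in the mean. DESeq2 passed 6, 7, and 7 members as lower at its adjusted p, in the same order. The shares of all genes at these settings were not counted. The median log2 fold change of the 10 members was -0.80 in the mean of both effects, beside 0.004 over all genes tested. In isolated cells measured in bulk, fewer expressing hepatocytes and less RNA per hepatocyte cannot be told apart.

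Ces1b had the lowest p-value of all members. Its normalized counts were 3264, 2874, and 3117 in control, 546 and 455 in Nrf2 KO, 4579 and 4523 in p65 KO, and 381, 466, and 536 in DKO libraries. Every library without Nrf2 lay below every library with it, and the p65 KO libraries were the highest. The log2 fold change was -2.62 (SE 0.16, adjusted p = 3.36e-05) in Nrf2 KO against control and -3.30 (SE 0.15, adjusted p = 8.35e-07) in DKO against p65 KO, so that 16.2% and 10.1% of the respective level was left.

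Ces1g, whose product is a triacylglycerol hydrolase of hepatocytes also known as esterase-x, followed the same pattern at a higher level. Control libraries held 9798, 10076, and 10074 normalized counts and p65 KO libraries 10831 and 11611, whereas Nrf2 KO libraries held 1721 and 1191 and DKO libraries 896, 1083, and 2042. The groups with and without Nrf2 did not overlap. Its log2 fold change was -2.78 (SE 0.32, adjusted p = 0.00216) with p65 present and -3.07 (SE 0.29, adjusted p = 0.000791) with p65 lost. Without Nrf2 KO replicate 2, the first change was -2.54 and missed the adjusted threshold.

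Ces2c, a hydrolase of acylglycerols and drugs, was the third strongly lowered member and the most variable one. Its control libraries held 3599, 2898, and 1864 normalized counts, the Nrf2 KO libraries 373 and 423, the p65 KO libraries 1522 and 2488, and the DKO libraries 654, 211, and 577. The spread within control and p65 KO was wide, and yet all 5 libraries without Nrf2 lay below all 5 with it. The log2 fold change was -2.81 (SE 0.45, adjusted p = 0.0179) with p65 present and -2.06 (SE 0.40, adjusted p = 0.0233) with p65 lost. The first was no longer past the adjusted threshold without control replicate 1, control replicate 2, or either Nrf2 KO library (log2 fold change of -2.90 to -2.58), and the second without either p65 KO library (-2.37 and -1.66), which leaves 1 library in that genotype.

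**Figure D2:**
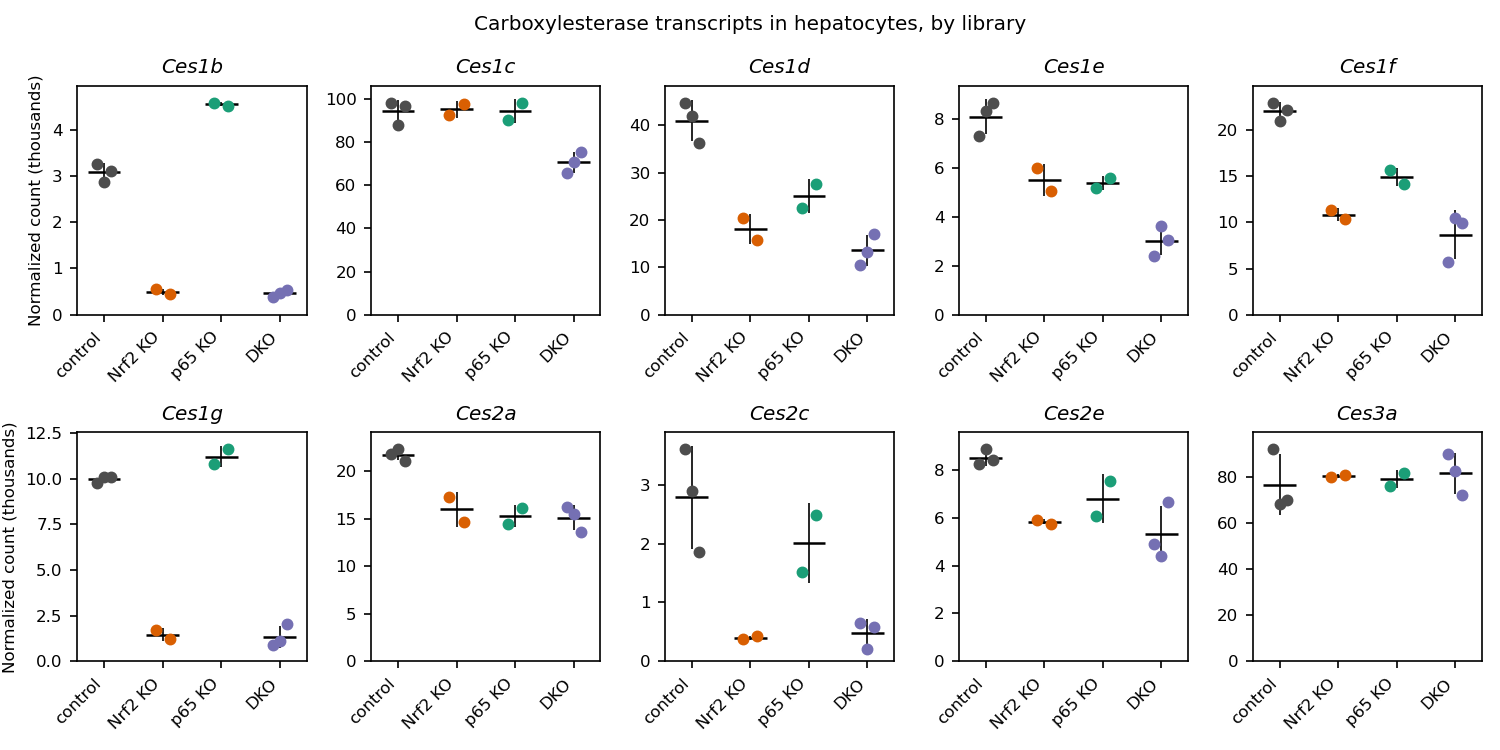
Normalized counts (linear axes from 0, in the units marked on them) of the 10 carboxylesterase transcripts in each library of the 4 genotypes; points are libraries, horizontal lines the means and vertical lines the SD (n = 3 control, 2 Nrf2 KO, 2 p65 KO, and 3 DKO). Ces1b, Ces1g, and Ces2c fall to between 10.1% and 24.0% of the matching genotype with Nrf2, the means of Ces1d, Ces1e, and Ces1f are lowest in DKO, and Ces3a shows no separation of the genotypes.

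A second set of Ces1 members, Ces1d, Ces1f, and Ces1e, was lowered by less. Ces1d had 44735, 42045, and 36288 normalized counts in control, 20375 and 15874 in Nrf2 KO, 22482 and 27588 in p65 KO, and 10515, 13329, and 17048 in DKO libraries. The Nrf2 KO and DKO libraries lay below those of control and p65 KO, respectively, without overlap. Its log2 fold change on Nrf2 loss was -1.18 (SE 0.21, adjusted p = 0.0327) with p65 present, -0.88 (SE 0.20, adjusted p = 0.0376) with p65 lost, and -1.03 (SE 0.14, adjusted p = 0.00452) in the mean of both. The 2 single comparisons each missed the adjusted threshold in 6 of the 10 fits that left out 1 library: without control replicate 1 or 2, either p65 KO library, and either Nrf2 KO library for the first (-1.37 to -1.01) or DKO replicate 1 or 2 for the second (-1.02 to -0.72). The mean of both effects stayed past the adjusted threshold in each such fit, but its size fell below 1 without control replicate 1, Nrf2 KO replicate 2, p65 KO replicate 2, or DKO replicate 1 (-0.99 to -0.94).

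Ces1f had 22929, 20964, and 22148 normalized counts in control and 11304 and 10356 in Nrf2 KO libraries. With p65 lost it had 15638 and 14203 in p65 KO and 5672, 10473, and 9905 in DKO libraries, and neither comparison overlapped. The log2 fold change was -1.02 (SE 0.22, adjusted p = 0.0753) and -0.78 (SE 0.21, adjusted p = 0.0647) in the single comparisons, which both missed the adjusted threshold, and -0.90 (SE 0.15, adjusted p = 0.0138) in their mean. Both single comparisons passed it with DESeq2 (-1.03, adjusted p = 0.000408, and -0.79, adjusted p = 0.0073) and without the filter on low counts (adjusted p = 0.0321 and 0.04), the first also with only the 2 genotypes in the fit (adjusted p = 0.00948) or without DKO replicate 1 (-1.03), and the second also with equal totals (-1.04, adjusted p = 0.0167) or without DKO replicate 2 (-0.94). That mean was no longer past the threshold without either Nrf2 KO library (-0.93 and -0.87).

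Ces1e encodes egasyn, which holds β-glucuronidase in the endoplasmic reticulum. It had 7297, 8328, and 8654 normalized counts in control, 5979 and 5036 in Nrf2 KO, 5178 and 5588 in p65 KO, and 2406, 3609, and 3059 in DKO libraries. Its log2 fold change on Nrf2 loss was -0.56 (SE 0.17, adjusted p = 0.242) with p65 present and -0.83 (SE 0.16, adjusted p = 0.0233) with p65 lost. The mean of both was -0.69 (SE 0.12, adjusted p = 0.0131). The change with p65 lost missed the adjusted threshold without DKO replicate 1 or either p65 KO library (-0.89 to -0.69), and the mean missed it without Nrf2 KO replicate 2 (-0.63) or p65 KO replicate 2 (-0.67).

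The remaining 4 members, Ces3a, Ces1c, Ces2a, and Ces2e, did not pass the adjusted threshold for Nrf2 loss in the edgeR fit in either p65 state or in the mean, and 3 of them passed it in some comparison under another setting. Ces3a had 91943, 68334, and 69872 normalized counts in control, 79834 and 80928 in Nrf2 KO, 76280 and 81893 in p65 KO, and 89747, 82756, and 72273 in DKO libraries, with overlap between all genotypes. The mean log2 change on Nrf2 loss was 0.06 with a 95% interval of -0.19 to 0.30 (adjusted p = 0.835). Ces1c had 98159, 88122, and 96608 in control, 92524 and 97883 in Nrf2 KO, 90414 and 98195 in p65 KO, and 65767, 70735, and 75261 in DKO libraries. Hence the single KO libraries lay within or next to the control range, and all 3 DKO libraries lay below every other library. Its log2 fold change was 0.01 (95% interval -0.26 to 0.29, adjusted p = 0.989) with p65 present and -0.42 (95% interval -0.69 to -0.15, adjusted p = 0.0811) with p65 lost. The latter passed with DESeq2 (-0.43, adjusted p = 0.00209) and with equal totals (-0.69, adjusted p = 0.00715), and with equal totals so did the mean of both effects (-0.33, adjusted p = 0.0474).

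Ces2a and Ces2e, relatives of Ces2c, were between these patterns. Ces2a had 21750, 22272, and 21104 normalized counts in control, 17229 and 14684 in Nrf2 KO, 14428 and 16126 in p65 KO, and 16176, 15473, and 13595 in DKO libraries. All libraries with a deletion lay below control and overlapped among themselves. Its log2 fold change on Nrf2 loss was -0.44 (95% interval -0.72 to -0.17, adjusted p = 0.216) with p65 present and -0.02 (95% interval -0.29 to 0.26, adjusted p = 0.948) with p65 lost. Ces2e had 8229, 8856, and 8403 in control, 5908 and 5758 in Nrf2 KO, 6066 and 7536 in p65 KO, and 4884, 4410, and 6642 in DKO libraries. The Nrf2 KO libraries lay below control, whereas DKO replicate 3 lay within the p65 KO range. The mean log2 change of Ces2e on Nrf2 loss was -0.45 (95% interval -0.71 to -0.19, adjusted p = 0.0779), and that of Ces2a was -0.23 (95% interval -0.43 to -0.04, adjusted p = 0.195). Ces2e passed in that mean with DESeq2 (-0.46, adjusted p = 0.00659), with equal totals (-0.59, adjusted p = 0.0236), and without DKO replicate 3 (-0.54), and with p65 lost with equal totals (-0.63, adjusted p = 0.0336). Ces2a passed with p65 present with DESeq2 (-0.45, adjusted p = 0.0106).

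**Figure D3:**
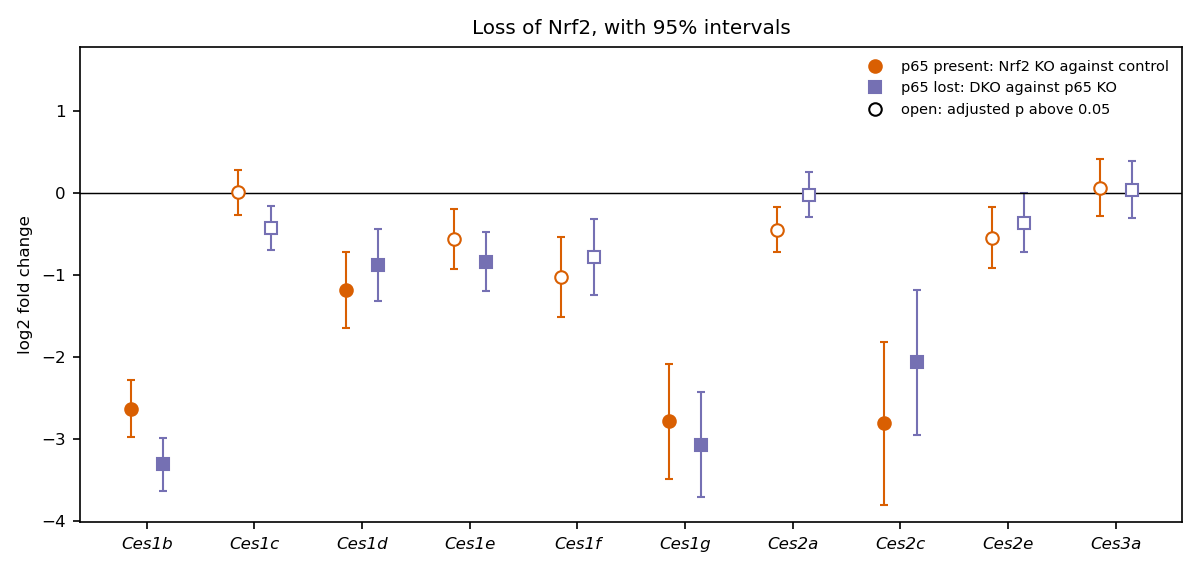
Change of each transcript on loss of Nrf2 with p65 present (circles, Nrf2 KO against control) and with p65 lost (squares, DKO against p65 KO), in log2 fold change with 95% intervals from the edgeR fit; filled symbols have an adjusted p of at most 0.05. Ces1b, Ces1g, and Ces2c lie between -3.30 and -2.06, Ces1d, Ces1e, and Ces1f between -1.18 and -0.56, and the intervals of Ces3a contain 0 in both states.

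Whether paralogs responded unequally was tested on the difference itself. For each of the 45 pairs of members, the log2 ratio of their normalized counts (with 1 added to each) was compared between libraries with and without Nrf2 within each p65 state, by a two-sided exact permutation test over 100 assignments whose smallest p is 0.01, adjusted over the 45 pairs. The difference passed an adjusted p of 0.05 for 31 pairs, of which 24 had the smallest p. Ces1b fell more than its neighbour and closest relative Ces1c by 2.77 on the log2 scale (exact permutation p = 0.01, adjusted p = 0.019). Ces1g fell more than Ces1d by 1.94 and Ces2c more than Ces2a by 2.23 and more than Ces2e by 2.01 (exact permutation p = 0.01 and adjusted p = 0.019 in each). Ces1d, Ces1e, and Ces1f did not differ detectably from each other, with differences between 0.11 and 0.34 and exact permutation p-values of 0.12 to 0.45. Ces1b and Ces1g differed by 0.01 (exact permutation p = 0.97) and Ces1g and Ces2c by 0.51 (exact permutation p = 0.31). These tests do not show that such pairs responded alike. Without control replicate 2 or control replicate 3, 19 pairs were past the threshold. Leaving out 1 library also leaves fewer assignments and a larger smallest p, so this fall does not measure the paralog differences alone.

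**Figure D4:**
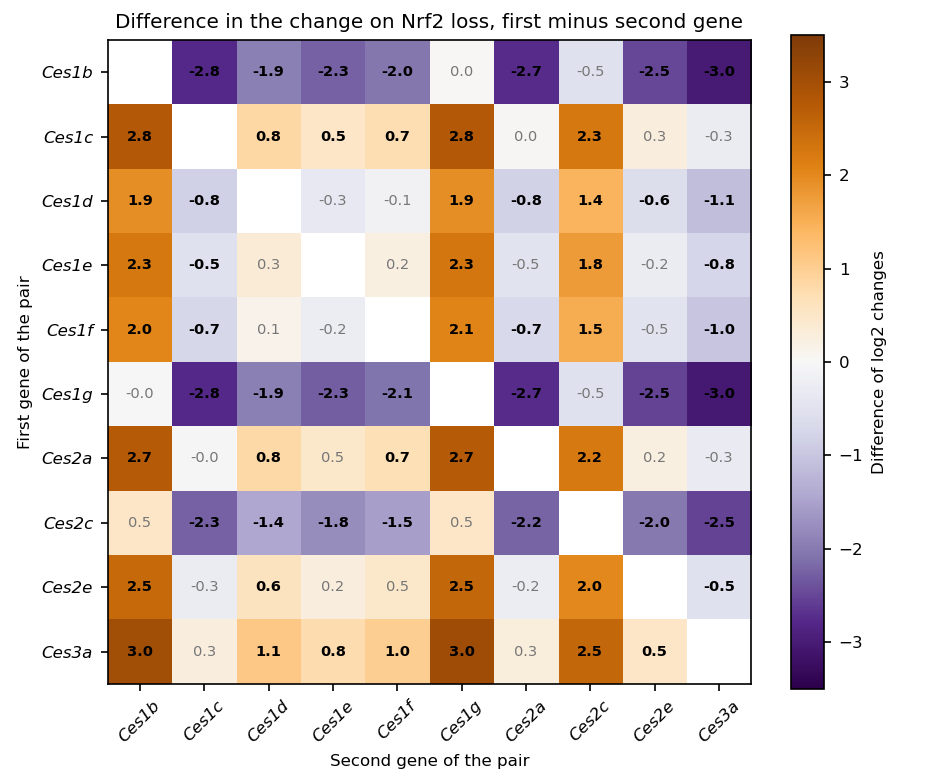
Difference in the mean log2 change on Nrf2 loss between the gene in the row and the gene in the column, for all 45 pairs of carboxylesterases; colour and number give the difference, and bold numbers mark the 31 pairs with an adjusted p of at most 0.05. Ces1b, Ces1g, and Ces2c form dark bands against the other 7 genes and differ little from each other.

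The members lowered most were neither neighbours nor the pair most alike in sequence. Ces1b and Ces1g stand at the 2 ends of the Ces1 members, with Ces1c, Ces1d, Ces1e, and Ces1f between them, and Ces2c stands between Ces2a and Ces2e. For 7 of the 10 members a promoter sequence of 250 bases before the start was matched in RefSeq (GRCm38.p6), and for Ces1d, Ces1f, and Ces3a none was. The windows of Ces1b (chr8:93079941-93080190, minus strand) and Ces1c (chr8:93131284-93131533, minus strand) are shown because these neighbours, the most alike in coding sequence, differed in their change on Nrf2 loss. They were identical at 208 of 250 positions, 83.2%, against 36.8% to 66% in the other 20 pairs of members. Capitals mark the 42 bases of each that had no identical partner in the alignment:

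Ces1b: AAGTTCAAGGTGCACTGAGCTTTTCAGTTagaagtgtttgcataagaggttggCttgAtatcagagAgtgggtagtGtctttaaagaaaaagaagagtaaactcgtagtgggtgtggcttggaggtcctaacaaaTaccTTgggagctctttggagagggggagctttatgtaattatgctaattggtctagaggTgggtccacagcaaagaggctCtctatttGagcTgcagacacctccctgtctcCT
Ces1c: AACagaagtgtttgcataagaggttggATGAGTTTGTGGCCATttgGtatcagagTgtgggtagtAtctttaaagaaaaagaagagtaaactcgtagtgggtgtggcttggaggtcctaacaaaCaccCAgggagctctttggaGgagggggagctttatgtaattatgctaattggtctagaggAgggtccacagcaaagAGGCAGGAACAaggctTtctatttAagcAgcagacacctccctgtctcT

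The core of the antioxidant response element, searched as TGACNNNGC on both strands from 250 bases before to 50 bases after the start, occurred in 12.4% of 32851 mouse promoter windows and in 0 of the 7 matched members. The wider form TGANNNNGC, which includes the core, occurred in 41.3% of windows and in 2 members, with its first base 12 bases before the start in Ces1g and 96 bases before it in Ces2a. An NF-κB consensus occurred in 4.51% of windows and in 1 member, 141 bases before the start of Ces2c. A match in these letters is no evidence of binding, and elements outside the windows were not searched.

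On loss of p65 alone, the log2 fold changes of the members lay between -0.71 and 0.56. In p65 KO against control, 3 of 10 members were lower, against 6.77% of all genes tested, 1 was higher, against 8.13%, and none passed the fold threshold in either direction, against 6.59%. With the fold threshold, DESeq2 and limma also called 0 members, and by edgeR 5 members had an unadjusted p below 0.05. Ces1b was higher, with a log2 fold change of 0.56 (SE 0.14, adjusted p = 0.0241), and its p65 KO libraries reached 148% of the control mean. Ces1d (-0.71, SE 0.21, adjusted p = 0.0413), Ces1e (-0.59, SE 0.17, adjusted p = 0.0379), and Ces2a (-0.51, SE 0.13, adjusted p = 0.0241) were lower. Ces1f had a log2 fold change of -0.56 (adjusted p = 0.104) and Ces2e one of -0.32 (adjusted p = 0.215). Ces1c, Ces1g, Ces2c, and Ces3a had values of 0.00, 0.17, -0.47, and 0.04, none past the threshold. With equal totals, Ces1b alone passed the adjusted threshold, and Ces1d (-0.54, adjusted p = 0.117), Ces1e (-0.41, adjusted p = 0.165), and Ces2a (-0.33, adjusted p = 0.141) did not. Each of the 4 changes missed it without either p65 KO library and without control replicate 1 or 2, and Ces1b, Ces1d, and Ces1e also missed it without control replicate 3, with log2 fold changes of 0.51 to 0.60 for Ces1b, -0.87 to -0.57 for Ces1d, -0.66 to -0.53 for Ces1e, and -0.59 to -0.43 for Ces2a.

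On the Nrf2-deficient background, DKO against Nrf2 KO, Ces1e was the 1 member of 10 that was lower in the edgeR fit, with a log2 fold change of -0.86 (SE 0.16, adjusted p = 0.047), against 0.191% of all genes. No member passed the fold threshold as well, against 0.433% of genes, and the same count of 0 came from DESeq2 and limma, whereas 2 members had an unadjusted p below 0.05. The second of these was Ces1c, with a log2 fold change of -0.43 (SE 0.12, adjusted p = 0.159), and these were the members for which all DKO libraries lay below all Nrf2 KO libraries. DESeq2 passed both Ces1e and Ces1c (-0.42, adjusted p = 0.00658). Ces1e missed the adjusted threshold with DESeq2 size factors (adjusted p = 0.0537), equal totals (0.0519), a mean of at least 10 counts (0.0559), and only the 2 genotypes in the fit (0.178). It passed without DKO replicate 2 and missed without any other single library, at log2 fold changes between -0.98 and -0.72. In the mean over both Nrf2 states, 3 members were lower on p65 loss, against 6.81% of all genes: Ces1e (-0.73, SE 0.12, adjusted p = 0.00363), Ces1d (-0.56, SE 0.14, adjusted p = 0.0252), and Ces2a (-0.29, SE 0.09, adjusted p = 0.0456). None of the 10 passed the fold threshold, against 5.93% of all genes, also with DESeq2 or limma, and 5 had an unadjusted p below 0.05. Ces1e stayed past the adjusted threshold without each library in turn, Ces1d missed it without control replicate 1, Nrf2 KO replicate 1, or p65 KO replicate 1 (-0.53 to -0.47), and Ces2a missed it without any library but DKO replicate 1 (-0.35 to -0.23). Ces2a also missed it with each other scaling tried (-0.28 to -0.26, adjusted p = 0.0527 to 0.117) and with each other filter (adjusted p = 0.0514 and 0.0528), and DESeq2 also passed Ces1c (-0.20, adjusted p = 0.0415) and Ces1f (-0.43, adjusted p = 0.0368).

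Markers of several other cell types, but not of all those listed, moved with p65 loss as well. All 12 markers of Kupffer cells and macrophages and all 8 of sinusoidal endothelial cells were higher in p65 KO than in control, as were 6 of 8 of stellate cells. The summed level of the Kupffer cell markers was 428 to 1068 normalized counts in control, 308 to 916 in Nrf2 KO, 4814 to 6491 in p65 KO, and 1833 to 3195 in DKO libraries. The endothelial sum was 676 to 1400, 816 to 1655, 3532 to 4992, and 1711 to 2493, and the stellate sum 241 to 467, 191 to 363, 2375 to 2464, and 433 to 1145 in the same order of genotypes. T and NK cell markers summed to at most 1.97 normalized counts in control and to 11.3 to 14.2 in p65 KO libraries, and no listed marker of any of these types was at 0 in every library. Neutrophil sums were 2.80 to 4.92 in control and 10.4 to 50.8 in p65 KO libraries. Cholangiocyte sums overlapped (268 to 392 in control, 347 to 444 in p65 KO), as did B cell sums (0.983 to 2.80 and 1.89 to 9.14). Erythroid sums were 51.9 to 182 in control, 35.9 to 94.5 in p65 KO, and 164 to 1141 in DKO libraries. The summed hepatocyte markers were 3556486 to 4962661 in control and 4111913 to 4364541 in p65 KO libraries. Alb, with a control mean of 3014424, made up most of this sum. Of the single hepatocyte markers, Cps1 (0.56, edgeR adjusted p = 0.0479) and Hnf4a (0.46, edgeR adjusted p = 0.0222) were higher in p65 KO than in control. No other hepatocyte marker passed the adjusted threshold there. The part of the other cell types in the changes of the carboxylesterases was not tested.

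**Figure D5:**
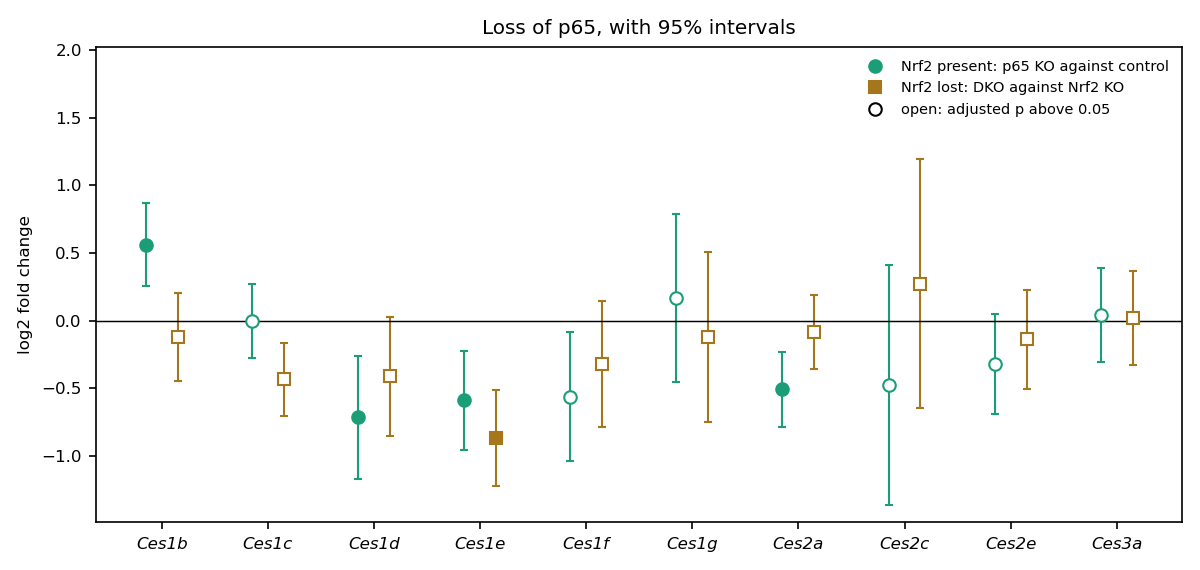
Change of each transcript on loss of p65 with Nrf2 present (circles, p65 KO against control) and with Nrf2 lost (squares, DKO against Nrf2 KO), in log2 fold change with 95% intervals from the edgeR fit; filled symbols have an adjusted p of at most 0.05. Filled circles stand at 0.56 for Ces1b, -0.71 for Ces1d, -0.59 for Ces1e, and -0.51 for Ces2a, and the 1 filled square at -0.86 for Ces1e.

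With both genes lost, DKO against control, 8 of 10 members were lower, against 2.84% of all genes, and 6 of them passed both thresholds, against 1.02%. This comparison shares the control libraries with those of the single KO and the DKO libraries with the others. The 6 were Ces1g (-2.90), Ces1b (-2.74), Ces2c (-2.53), Ces1d (-1.59), Ces1e (-1.42), and Ces1f (-1.34), with adjusted p-values between 8.7e-06 and 0.00509. Ces2e (-0.68, adjusted p = 0.0276) and Ces2a (-0.53, adjusted p = 0.0241) were lower by less. Both missed the adjusted threshold without any 1 control library and without DKO replicate 1 or 2 for Ces2e (-0.70 to -0.56) or DKO replicate 2 or 3 for Ces2a (-0.54 to -0.45). Ces1c missed the adjusted threshold in the edgeR fit with -0.42 (95% interval -0.66 to -0.17, adjusted p = 0.0538) and passed it with DESeq2 (adjusted p = 0.000621), with equal totals (-0.51, adjusted p = 0.0186), and with a mean of at least 10 counts (adjusted p = 0.0492), whereas Ces3a had 0.09 (95% interval -0.22 to 0.40).

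Whether the effect of Nrf2 loss differed between the p65 states was tested by the interaction term. With edgeR, 0 of 10 members passed it, against 0.469% of all genes at the adjusted p alone and 0.455% with the fold threshold, and DESeq2 and limma also gave 0. At an unadjusted p below 0.05 there were 3 members. Ces1b fell further with p65 lost, by 0.68 on the log2 scale (SE 0.20, adjusted p = 0.194), and so did Ces1c, by 0.43 (SE 0.17, adjusted p = 0.316), whereas Ces2a fell less, with a difference of 0.43 (SE 0.18, adjusted p = 0.332).

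Because reads of similar paralogs can be divided between them, the counts were also summed. The control libraries (n = 3) held 178494 ± 7025 normalized counts (SD) of the 6 Ces1 members together, Nrf2 KO libraries (n = 2) 131622 ± 1170, p65 KO libraries (n = 2) 155415 ± 8899, and DKO libraries (n = 3) 97727 ± 11237, with no overlap between genotypes. The 4 Ces2 and Ces3 members together held 109708 ± 13706, 102568 ± 1097, 103169 ± 6892, and 102466 ± 9193 in the same order and with the same n, which overlapped throughout. The log2 ratio for Nrf2 loss, as the mean of both p65 states, was -0.56 for the Ces1 sum and -0.05 for the Ces2 and Ces3 sum. Ces3a alone gave 76716 of the 109708 control counts, so the latter sum mostly follows Ces3a. The Ces2 members were not summed without it. Nrf2 KO means of Ces2a, Ces2c, and Ces2e were 73.5%, 14.3%, and 68.7% of control. Their DKO means were 98.7%, 24.0%, and 78.1% of the p65 KO means. Per length and as a mean share of the 10 members, Ces1c made up 36.1% in control and 38.0% in DKO, Ces3a 26.6% and 40.02%, and Ces1d 14.6% and 6.85%.

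The genes outside the 10 whose profiles over the 10 libraries were most like those of a member were sought by Pearson correlation of log2 normalized counts among 10175 genes, as a description only, since the libraries share genotypes. For Ces1b, which had the lowest p for Nrf2 loss, these were Nr1i3 (r = 0.98), Gsta13 (0.97), Nqo1 (0.97), Entpd5 (0.96), and Mlec (0.96). For Ces1e, with the lowest p for p65 loss, they were Usp47 (0.94), Hsd17b11 (0.94), Mme (0.93), Smim36 (0.93), and Oxsr1 (0.93). Between members, the highest correlation was that of Ces1b with Ces1g (r = 0.99), followed by Ces1d with Ces1f (r = 0.96).

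Few related genes passed the test of Nrf2 loss. Of the other carboxylesterase genes, Ces2f and Ces5a were at 0 in every library, and of the 6 that could be tested none passed the threshold with edgeR or limma for the mean of both effects, 2 had an unadjusted p below 0.05, and 1 passed with DESeq2. Ces3b, the neighbour and closest relative of Ces3a, had 19559 to 24183 normalized counts in control and 18662 to 19673 in Nrf2 KO libraries, with a mean log2 change of 0.00, and Ces2g had 1690 to 1776 in control and 1504 to 1769 in Nrf2 KO libraries. With p65 lost, however, Ces2g was lower in DKO than in p65 KO (-0.45, edgeR adjusted p = 0.0488). It was higher in p65 KO than in control (0.40, edgeR adjusted p = 0.0366). Among 18 other esterases and lipid hydrolases of the liver, 1 was lower in that mean at the adjusted threshold, against 1.21% of all genes tested, and none was higher. It was Nceh1, a cholesterol ester hydrolase of the endoplasmic reticulum, whose normalized counts fell from 1049 ± 89.2 (SD, n = 3) in control to 430 ± 19.5 (SD, n = 2) in Nrf2 KO, with a mean log2 change of -0.996 (SE 0.14, adjusted p = 0.00469). At an unadjusted p below 0.05 with edgeR, Pnpla3 (2.82), Lypla2 (0.29), Lipc (0.28), and Aadac (0.23) were higher in the mean of both effects. Besides Nceh1, Abhd6 (-0.44), Pnpla2 (-0.37), Bche (-0.31), Lipe (-0.28), and Mgll (-0.25) were lower at that unadjusted p. None of 12 partners in the endoplasmic reticulum and in lipoprotein assembly passed, among them Gusb, the β-glucuronidase held by egasyn (0.06), and Mttp, the lipid loader of very low density lipoproteins (-0.06), and none of them had an unadjusted p below 0.05 or passed with DESeq2 or limma.

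Among 14 transcription factors and partners known to act on carboxylesterase or detoxification genes, 2 were lower on Nrf2 loss in the mean of both effects. Nr1i3, the xenobiotic receptor CAR, had 4301, 4522, and 4679 normalized counts in control, 1966 and 1892 in Nrf2 KO, 6446 and 5794 in p65 KO, and 1329, 1384, and 2148 in DKO libraries. Its mean log2 change was -1.57 (SE 0.13, adjusted p = 0.000161), with no overlap between libraries with and without Nrf2. Hnf4a, a hepatocyte nuclear receptor, changed by -0.35 (SE 0.08, adjusted p = 0.0498) in that mean, by -0.14 (adjusted p = 0.80) with p65 present and by -0.57 (adjusted p = 0.0233) with p65 lost. Its interaction term missed the adjusted threshold (-0.43, adjusted p = 0.274). Hnf4a was higher in p65 KO than in control (0.46, edgeR adjusted p = 0.0222). In DKO against control it changed by -0.11 (edgeR adjusted p = 0.554), so its lower level on Nrf2 loss was seen against p65 KO and not against control. Keap1, the inhibitor of Nrf2, changed by -0.04 (adjusted p = 0.85). Of 20 established Nrf2 target genes other than the carboxylesterases, 13 were lower and none higher, with a median log2 change of -1.02. Ces1b (-2.96), Ces1g (-2.92), and Ces2c (-2.43) had larger decreases than that median, Ces1d (-1.03) was close to it, and the other 6 members changed by less. Gstm1, a glutathione transferase, had a log2 change of -2.76 on the same scale.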

How the data were processed

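Poly(A)-selected, stranded RNA-seq libraries of purified hepatocytes were sequenced by the authors as single reads of 100 bases. The deposited values are estimated counts per Ensembl gene, which the authors made with Salmon 1.10.3 on GENCODE release 33 (GRCm39); the deposit calls the table normalized, but its values are whole numbers with unequal totals, and they were treated as unscaled counts, an assumption that the sources used here do not settle. Of 21939 genes, 21926 matched GENCODE release 39, which gave symbols, positions, and lengths. Counts were analyzed with edgeR 4.0.16 (quasi-likelihood test, TMM, at least 10 counts summed over the libraries, 4 genotypes in 1 fit), with Benjamini-Hochberg adjustment over 13641 genes. A gene was past the adjusted threshold at an adjusted p no higher than 0.05, and called where its change was also 1 or more in log2 units. Each library was taken as 1 mouse, since the labels do not give the source of replicates beyond that, and p-values measure the spread between these samples. Paralog pairs were compared by exact permutation. DESeq2 1.42.0 and limma 3.58.1 were alternatives. The fit and the test of paralog pairs were tried on simulated data. Members and gene lists were chosen with earlier results of these data known.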

Additional observations from a re-analysis of the deposited data

How the results depend on the processing

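The calls for Ces1b in both tests of Nrf2 loss and for Ces1g and Ces2c in the mean of both effects held under each alternative run, and other results were less stable. In Nrf2 KO against control, 2 members in place of 4 were called with the replicate number as a block, and 1 to 5 when 1 library was left out (2 without control replicate 1, control replicate 2, or Nrf2 KO replicate 1, and 1 without Nrf2 KO replicate 2). With that block, 2 members in place of 4 passed the adjusted threshold in p65 KO against control. In DKO against p65 KO, the block made Ces1d (-0.94, adjusted p = 0.077) and Ces2c (-2.05, adjusted p = 0.0667) miss it. With only these 2 genotypes in the fit, 2 members in place of 5 passed it there. Ces1d (-0.87, adjusted p = 0.106), Ces1e (-0.82, adjusted p = 0.088), and Ces2c (-2.05, adjusted p = 0.0782) then missed it. Same-numbered libraries showed little likeness (correlations of deviations of -0.232 to 0.113 over 13 same-numbered pairs, 1 above 0.1). In Nrf2 KO and p65 KO, with 2 libraries each, deviations from the genotype mean mirror each other, so some of these values repeat in size. The check therefore cannot settle whether the replicate numbers pair the libraries. In DKO against p65 KO, 6 members in place of 3 were called with equal totals and 2 to 4 when 1 library was left out; in DKO against Nrf2 KO, 0 to 1, the 1 without DKO replicate 2. Scaling to equal totals shifted the median change (log2) over genes averaging 50 or more normalized counts from 0.027 to -0.243 in DKO against p65 KO, from 0.017 to -0.117 in the mean effect of Nrf2 loss, and from -0.056 to 0.121 in p65 KO against control, so its member values are relative to that shift. With it, the log2 ratio for Nrf2 loss was -0.69 for the Ces1 sum and -0.18 for the Ces2 and Ces3 sum. The count of differing paralog pairs fell from 31 to 19 without control replicate 2 or control replicate 3, where fewer assignments also raised the smallest p of the test.

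Values near 0 that were past no threshold changed sign in 30 of 1212 recomputed member results. With equal totals Ces3a had -0.22 in DKO against p65 KO and -0.074 in the mean effect of Nrf2 loss. Ces2a in DKO against p65 KO had 0.0020 with upper-quartile scaling and 0.024 with the replicate block. With that block Ces3a had -0.020 in p65 KO against control, and Ces1g had -0.018 in the mean effect of p65 loss, where limma gave -0.010. Leaving out 1 library gave ranges of -0.033 to 0.054 (Ces1c) and -0.0097 to 0.22 (Ces3a) in Nrf2 KO against control, -0.023 to 0.13 (Ces3a) and -0.097 to 0.064 (Ces2a) in DKO against p65 KO, -0.060 to 0.059 (Ces1c) and -0.033 to 0.19 (Ces3a) in p65 KO against control, and -0.19 to 0.17 (Ces1g), -0.30 to 0.078 (Ces2c), and -0.0055 to 0.11 (Ces3a) in the mean effect of p65 loss. The cause of these shifts was not tested. With 2 libraries in Nrf2 KO and in p65 KO, leaving 1 out rests on the spread of the other genotypes.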
